A study of Homo sapiens and Mus musculus with 13 samples.

Results

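Class 3 semaphorins are secreted guidance proteins that steer growing axons, endothelial cells and migrating tumour cells. Most of them bind a neuropilin, NRP1 or NRP2, which pairs with a plexin of the A family. The plexin carries the signal inward, switching off R-Ras family GTPases and loosening the hold of integrins on the matrix. SEMA3E differs from the others in binding PLXND1 directly, and neuropilins also serve as co-receptors for vascular endothelial growth factors. The set described here held 10 genes of this pathway, taken by symbol from the human expression table of 24523 genes: 6 ligands (SEMA3A, SEMA3B, SEMA3C, SEMA3D, SEMA3E and SEMA3F), 2 neuropilins (NRP1 and NRP2) and 2 plexins (PLXNA1 and PLXND1). All 10 had a mean FPKM of at least 0.5 and were among the 12636 genes tested. FPKM is the number of sequenced fragments of a gene divided by its transcript length and by the number of fragments mapped in the library. SEMA3B shared its entry with the microRNA gene MIR6872, so its value could not be split from that of MIR6872.

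The 7 libraries came from MDA-MB-231, a mesenchymal triple-negative breast cancer cell line. All lines received lentiviral Cas9 with 1 or 2 guide RNAs, were selected with puromycin and were checked by western blotting in the study's methods. The sources used here do not say whether a line was 1 clone. Control carried a GFP sgRNA. TRIM11-KD1 and TRIM11-KD2 carried TRIM11-sgRNA1 and TRIM11-sgRNA2, and KDM5C-KD1 and KDM5C-KD2 carried KDM5C-sgRNA1 and KDM5C-sgRNA2. The double knockdowns (DKD) paired TRIM11-sgRNA1 (DKD1) or TRIM11-sgRNA2 (DKD2) with KDM5C-sgRNA2 in both lines. TRIM11 is a ubiquitin E3 ligase and KDM5C removes methyl groups from lysine 4 of histone H3. The comparisons asked how the mRNA profile differed when either gene, or both, had been targeted.

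KDM5C stood at 28.4 to 30.3 FPKM in the 3 libraries without a KDM5C guide and at 18.8 to 22.7 FPKM in the 4 with it. TRIM11 stood at 12.6 FPKM in Control, 10.6 in TRIM11-KD2 and 9.38 in DKD2. It was at 13.4 FPKM in the library labelled TRIM11-KD1 and at 16.1 FPKM in the library labelled DKD1, so TRIM11 mRNA was not lower than in Control in these libraries. Cas9 cuts need not lower the mRNA, and the protein is not measured here, but each direction below that uses either library rests on its label. The MDA-MB-231 markers VIM, CD44, AXL, CAV1 and EGFR were high in all 7 libraries, with VIM at 1038 to 1309 FPKM and EGFR at 41.7 to 63.3 FPKM. CDH1 was at 0.615 to 1.98 FPKM, and ESR1, PGR and FOXA1 were at or near 0. GATA3 (4.41 to 8.92 FPKM) and ERBB2 (17.8 to 23.7 FPKM) were detected. The endothelial markers CDH5, TEK and VWF were at most 0.202 FPKM in every library and PECAM1 was at most 0.775 FPKM. The number of reads behind each library is not given, so the counting error of low values is unknown. In these bulk libraries, fewer cells with a transcript and less of it per cell cannot be told apart.

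The genes of 4 ligands lie close together on chromosome 7. In hg19, SEMA3C (chr7:80371854-80551675), SEMA3E (chr7:82992554-83278455), SEMA3A (chr7:83585093-84122040) and SEMA3D (chr7:84624869-84816372) spanned 4.44 Mb, all on the minus strand, with HGF, CACNA2D1 and PCLO as the other protein-coding genes in the interval. SEMA3F (chr3:50192478-50226508) and SEMA3B (chr3:50304990-50314977) were 78.5 kb apart on the plus strand of chromosome 3. PLXNA1 (chr3:126701536-126756232) and PLXND1 (chr3:129274057-129325519) were on the same chromosome, NRP1 (chr10:33466420-33625190) on chromosome 10 and NRP2 (chr2:206546714-206662857) on chromosome 2.

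Upstream sequences are shown for the 2 ligands that were higher than Control in both KDM5C-KD lines, SEMA3E and SEMA3D, and for PLXNA1, a receptor that was lower there. Each is the 250 bases before an annotated transcription start, from RefSeq on GRCh38.p14, read 5′ to 3′ in the direction of the gene, with CG dinucleotides in capitals. SEMA3E has 2 annotated starts. The windows are chr7:83649140-83649389 and chr7:83641432-83641681 for SEMA3E, chr7:85187057-85187306 for SEMA3D (all minus strand) and chr3:126982865-126983114 for PLXNA1 (plus strand).
SEMA3E, distal start: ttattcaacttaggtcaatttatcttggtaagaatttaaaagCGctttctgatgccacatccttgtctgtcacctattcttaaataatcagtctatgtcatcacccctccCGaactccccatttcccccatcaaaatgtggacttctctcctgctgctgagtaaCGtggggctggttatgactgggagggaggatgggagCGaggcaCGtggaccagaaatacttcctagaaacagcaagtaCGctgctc
SEMA3E, proximal start: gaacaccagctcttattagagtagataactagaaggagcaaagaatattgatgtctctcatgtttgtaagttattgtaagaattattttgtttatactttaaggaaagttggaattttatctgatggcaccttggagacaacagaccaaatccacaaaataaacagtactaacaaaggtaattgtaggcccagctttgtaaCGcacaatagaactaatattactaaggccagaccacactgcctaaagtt
SEMA3D: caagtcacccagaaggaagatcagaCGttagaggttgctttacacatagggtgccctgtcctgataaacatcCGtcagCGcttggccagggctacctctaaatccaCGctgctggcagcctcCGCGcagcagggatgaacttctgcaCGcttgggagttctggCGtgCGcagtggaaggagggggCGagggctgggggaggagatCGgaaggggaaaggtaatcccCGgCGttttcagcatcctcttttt
PLXNA1: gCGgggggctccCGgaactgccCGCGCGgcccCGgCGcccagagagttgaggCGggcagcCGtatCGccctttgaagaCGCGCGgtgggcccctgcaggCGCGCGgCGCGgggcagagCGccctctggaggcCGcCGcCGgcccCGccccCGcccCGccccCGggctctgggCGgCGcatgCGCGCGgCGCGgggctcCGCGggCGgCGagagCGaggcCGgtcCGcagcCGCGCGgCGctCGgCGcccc
The SEMA3E windows held 6 and 1 CG dinucleotides and the SEMA3D window 13, against a median of 11 over 35116 windows. The PLXNA1 window held 46, more than 99.6% of all windows. Of the 10 genes, 8 had a window in the table, 16 windows in all, and SEMA3A and NRP1 had none. The PLXND1 window held 41, the NRP2 window 29 and the 5 SEMA3B windows 9 to 26. Of the 3 SEMA3F windows 2 held 34 and 42, and of the 2 SEMA3C windows 1 held 39, while the remaining window of each gene held 2. The letters TATAAA, read on both strands, were found in 1 of the 16 windows, the proximal one of SEMA3E, and in 10.7% of all windows. The E-box CACGTG, a palindrome, was found in 1 of the 16, the distal window of SEMA3E, and in 6.34% of all windows. These matches describe letters only.

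FPKM is scaled to transcript length, so levels could be set side by side between genes. By mean FPKM over the 7 libraries the order was NRP1 (54.9), PLXNA1 (25.5), PLXND1 (20.0), SEMA3B (17.8), SEMA3C (16.9), NRP2 (6.90), SEMA3F (6.00), SEMA3E (2.79), SEMA3A (2.08) and SEMA3D (1.09). NRP1 was above PLXNA1, PLXND1 above SEMA3B, and SEMA3C above NRP2 in 7 of 7 libraries. The other neighbours in the order exchanged places between libraries. PLXNA1 was above PLXND1 in 4 of 7, SEMA3B above SEMA3C in 4 of 7, NRP2 above SEMA3F in 3 of 7, SEMA3F above SEMA3E in 6 of 7, SEMA3E above SEMA3A in 3 of 7 and SEMA3A above SEMA3D in 5 of 7. NRP1 and both plexins thus had higher mean levels than any ligand. For the plexins this did not hold in every library. PLXNA1 was below SEMA3B in TRIM11-KD2 (16.9 against 19.0 FPKM), and PLXND1 was below SEMA3C in the library labelled TRIM11-KD1 (16.6 against 19.4 FPKM). SEMA3B and SEMA3C made up 62.7% to 82.2% of the summed ligand FPKM.

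**Figure D1:**
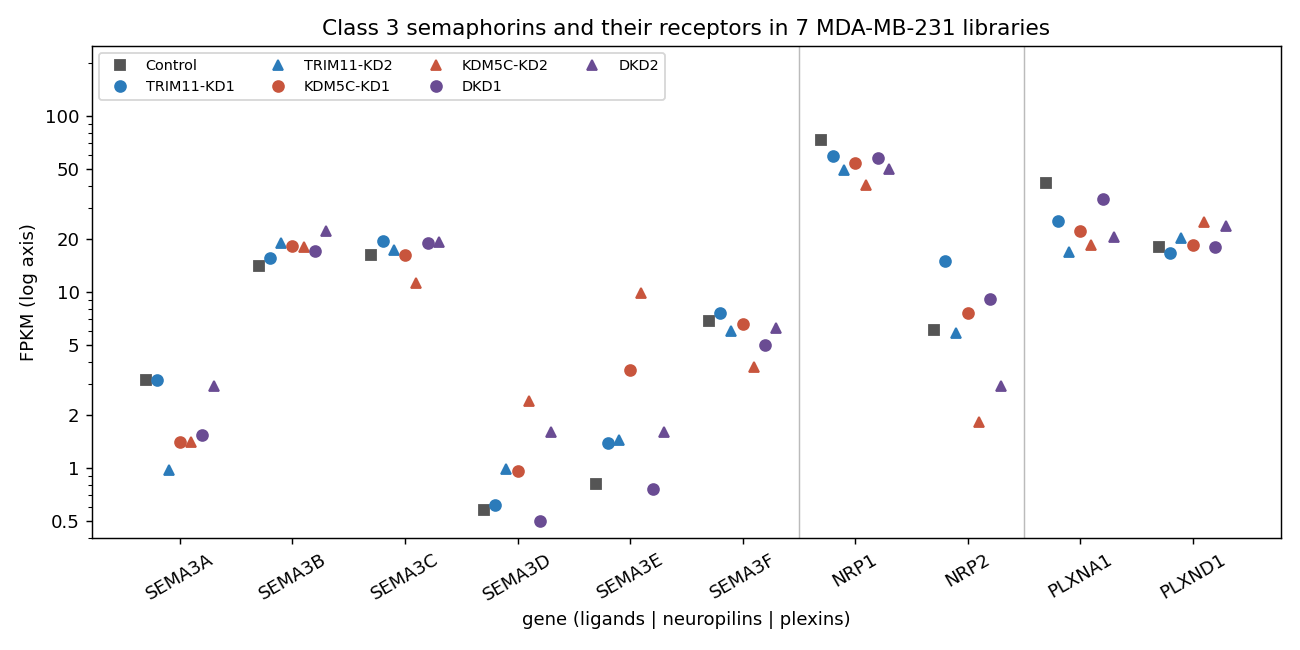
FPKM (log axis) of the 6 ligands, 2 neuropilins and 2 plexins in each of the 7 libraries. Squares are Control, circles line 1 and triangles line 2, and 1 point is 1 library. NRP1 is the highest gene in every library, and SEMA3E ranges from 0.759 FPKM in the library labelled DKD1 to 9.88 FPKM in KDM5C-KD2.

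SEMA3E was the member that ranged most, with a highest value 13.0 times its lowest. It is a repulsive ligand known from blood vessel patterning, and in tumour cells a cleaved form has been linked to invasion. SEMA3E stood at 0.810 FPKM in Control, at 1.39 and 1.44 FPKM in lines 1 and 2 of TRIM11-KD, at 3.62 and 9.88 FPKM in KDM5C-KD, and at 0.759 and 1.61 FPKM in DKD. The KDM5C-KD lines were the highest 2 of the 7 libraries, an order whose share over all genes was not counted. DKD overlapped TRIM11-KD, and Control lay inside the range of DKD. The ratio to Control was 4.47 and 12.2 in KDM5C-KD and 1.72 and 1.77 in TRIM11-KD. As a share of the summed ligand FPKM, SEMA3E was at 1.94% in Control, 7.73% and 21.2% in lines 1 and 2 of KDM5C-KD, and 1.73% and 2.98% in DKD. KDM5C-KD2 and both DKD lines carry the same KDM5C guide. The study picked SEMA3E among migration genes from these same libraries, as higher in KDM5C-KD and not in DKD, so these values are not independent evidence of that direction.

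SEMA3D, a guidance cue of the heart and of veins, was the lowest member and moved in a like order. It stood at 0.579 FPKM in Control, 0.613 and 0.986 FPKM in TRIM11-KD, 0.966 and 2.39 FPKM in KDM5C-KD, and 0.50 and 1.60 FPKM in DKD. Both KDM5C-KD lines were above Control (ratios 1.67 and 4.12), but TRIM11-KD and DKD each had a line near Control and a line above it, and the 3 knockdowns overlapped. SEMA3A, the prototype repellent that signals through NRP1, went the other way. It was at 3.16 FPKM in Control, 3.18 and 0.970 FPKM in TRIM11-KD, 1.40 and 1.40 FPKM in KDM5C-KD, and 1.54 and 2.93 FPKM in DKD. The KDM5C-KD lines were at 0.443 and 0.442 of Control, and the other knockdowns each had a line close to Control and a line well below it.

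The more abundant ligands ranged less. SEMA3C, which can act through either neuropilin and is known to promote tumour cell migration, was at 16.2 FPKM in Control, 19.4 and 17.3 FPKM in TRIM11-KD, 16.1 and 11.2 FPKM in KDM5C-KD, and 19.0 and 19.2 FPKM in DKD. Its lowest library was KDM5C-KD2, the library where SEMA3E and SEMA3D, on the same stretch of chromosome 7, were highest. Between them on the chromosome, HGF was listed at 0 in all 7 libraries, PCLO was at most 0.289 FPKM, and CACNA2D1 went from 0 in KDM5C-KD2 to 2.38 FPKM in the library labelled DKD1. SEMA3F, an NRP2 ligand with growth-restraining effects in several tumours, was at 6.80 FPKM in Control, 7.61 and 6.01 FPKM in TRIM11-KD, 6.58 and 3.72 FPKM in KDM5C-KD, and 5.02 and 6.25 FPKM in DKD. It was also lowest in KDM5C-KD2, and the groups overlapped. SEMA3B, a ligand described as a tumour suppressor, was at 14.1 FPKM in Control, 15.7 and 19.0 FPKM in TRIM11-KD, 18.2 and 18.0 FPKM in KDM5C-KD, and 17.0 and 22.3 FPKM in DKD. Control was below all 6 knockdown libraries for SEMA3B, as it was for 13.6% of the genes tested. The summed FPKM of the 6 ligands was 41.7 in Control and 43.9 to 53.9 in the knockdown libraries.

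NRP1, the receptor subunit for SEMA3A and for vascular endothelial growth factor A, was the most abundant member. It stood at 73.4 FPKM in Control, 59.0 and 49.2 FPKM in TRIM11-KD, 54.2 and 40.4 FPKM in KDM5C-KD, and 57.8 and 50.2 FPKM in DKD. Control was above all 6 knockdown libraries, as it was for 16.1% of the genes tested, and the knockdowns overlapped each other. NRP2, the receptor subunit for SEMA3F and for vascular endothelial growth factor C, showed another order. It stood at 6.05 FPKM in Control, 15.0 and 5.85 FPKM in TRIM11-KD, 7.57 and 1.83 FPKM in KDM5C-KD, and 9.08 and 2.90 FPKM in DKD. Line 1 was above Control and line 2 below it in each of the 3 knockdowns. NRP2 thereby made up 12.3% to 20.3% of the summed neuropilin FPKM in the 3 lines numbered 1 and 4.33% to 10.6% in the 3 lines numbered 2, with Control at 7.61%.

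PLXNA1, a signalling partner of NRP1, was at 41.4 FPKM in Control, 25.4 and 16.9 FPKM in TRIM11-KD, 22.1 and 18.6 FPKM in KDM5C-KD, and 33.6 and 20.6 FPKM in DKD. Control was above all 6 knockdown libraries, as it was for 16.1% of the genes tested, and the highest of these libraries was the one labelled DKD1. The ratio to Control was 0.614 and 0.408 in TRIM11-KD, 0.534 and 0.449 in KDM5C-KD, and 0.813 and 0.498 in DKD. PLXND1, the receptor that SEMA3E binds, varied little, with a highest value 1.51 times its lowest. It was at 17.9 FPKM in Control, 16.6 and 20.3 FPKM in TRIM11-KD, 18.4 and 25.0 FPKM in KDM5C-KD, and 18.1 and 23.7 FPKM in DKD. In KDM5C-KD2, where SEMA3E was highest, PLXND1 was also at its highest. PLXNA1 was below Control there, as in every knockdown library, and was lowest in TRIM11-KD2. PLXND1 made up 30.2% of the summed FPKM of these plexins in Control, 39.5% and 54.6% in TRIM11-KD, 45.5% and 57.4% in KDM5C-KD, and 35.0% and 53.5% in DKD, so the share was above that of every line 1 in every line 2.

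**Figure D2:**
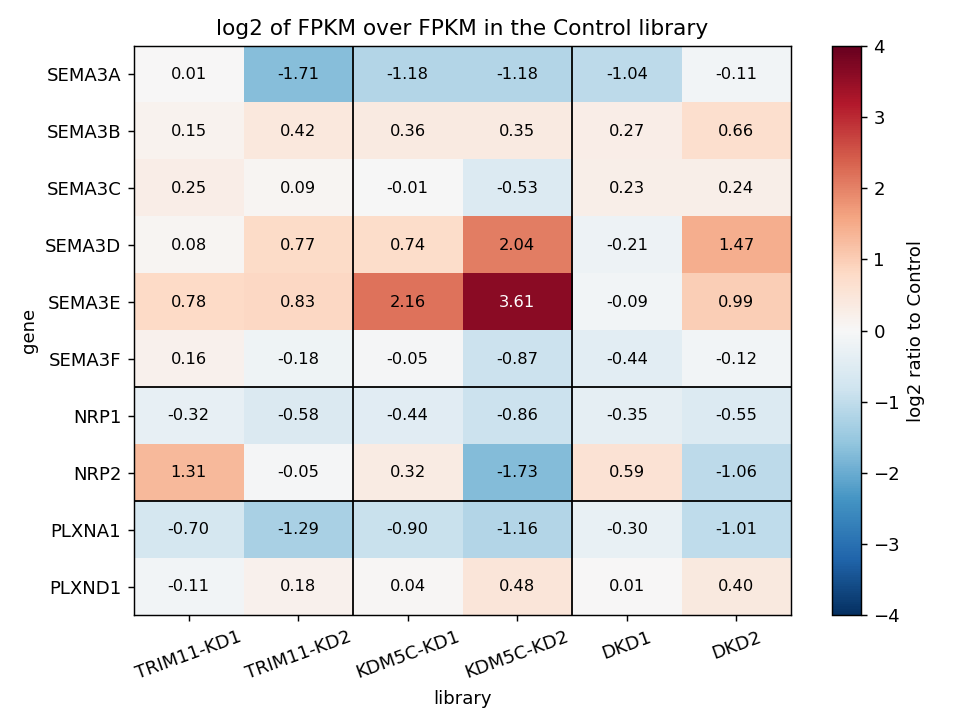
The log2 ratio of FPKM in each knockdown library (columns) to FPKM in the Control library, for each gene (rows), with red above and blue below Control. SEMA3E is at 2.16 and 3.61 in the KDM5C-KD lines, and PLXNA1 and NRP1 are below 0 in all 6 columns.

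Against Control there was 1 library, so no test was made, and the call required a plain ratio to Control of at least 1.5 upward, or of the same size downward, in both lines. In KDM5C-KD, SEMA3D and SEMA3E were called higher, beside 5.22% of all genes tested, and SEMA3A and PLXNA1 were called lower, beside 3.97%. In TRIM11-KD, SEMA3E was called higher (3.25% of all genes) and PLXNA1 lower (2.58%), with the library labelled TRIM11-KD1 as 1 of the 2 lines. None of the 10 was called in DKD, where 5.71% of all genes were called higher and 4.87% lower. Unlike the calls, the median log2 ratio of the 10 genes was taken on log2(FPKM + 1), with the mean of the 2 lines. It was -0.32 in KDM5C-KD, 0.10 in TRIM11-KD and 0.02 in DKD, against -0.01 for all genes tested in each. The 3 comparisons share the Control library. A call on 1 line alone is a looser rule. By KDM5C-KD2 alone 7 members were called, the additional ones being SEMA3F, NRP1 and NRP2 (all lower), beside 24.5% of all genes tested, and by KDM5C-KD1 alone 4, beside 14.3%. By DKD2 alone 5 members were called (SEMA3B, SEMA3D and SEMA3E higher, NRP2 and PLXNA1 lower), beside 23.6% of all genes, and by the library labelled DKD1 alone 2 (SEMA3A lower, NRP2 higher), beside 18.2%. By TRIM11-KD2 alone 4 were called, beside 18.2% of all genes, and by the library labelled TRIM11-KD1 alone 3, beside 9.86%. With a pseudocount of 1 SEMA3D was no longer called in KDM5C-KD, nor SEMA3E in TRIM11-KD. At a fold of 2, SEMA3E and SEMA3A were still called in KDM5C-KD, and none was called in TRIM11-KD.

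Between knockdowns, 2 lines could be set against 2 with limma on log2(FPKM + 1), and SEMA3E again showed the widest difference. Its log2 difference was 1.73 ± 0.42 (SE) between KDM5C-KD and DKD, with a 95% interval of 0.71 to 2.74, and 1.55 ± 0.42 between KDM5C-KD and TRIM11-KD, with an interval of 0.54 to 2.57. The limma adjusted p was 0.379 and 0.494, so neither passed the threshold of 0.05. As plain ratios of mean FPKM these differences were 5.71 and 4.77. KDM5C-KD2 set much of their size: without it the log2 differences were 1.11 and 0.94, and without KDM5C-KD1 they were 2.34 and 2.17, with limma adjusted p from 0.095 to 1.0 over these fits. For SEMA3C the log2 difference of KDM5C-KD from DKD was -0.48 ± 0.18, with an interval of -0.92 to -0.03 and a limma adjusted p of 0.411. That difference was -0.23 without KDM5C-KD2 and -0.72 without KDM5C-KD1.

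No member passed in any of these comparisons by limma with Benjamini-Hochberg adjustment, and neither did any gene (0.0% called in KDM5C-KD against DKD, in KDM5C-KD against TRIM11-KD and in DKD against TRIM11-KD). At an unadjusted p under 0.05, 2 members stood out in KDM5C-KD against DKD (SEMA3C and SEMA3E), beside 11.7% of all genes. For KDM5C-KD against TRIM11-KD there was 1 (SEMA3E), beside 9.82%, and for DKD against TRIM11-KD there was none, beside 7.03%. In DKD against TRIM11-KD the lowest limma adjusted p of a member was 0.784, for PLXNA1. Same-numbered lines of these 2 knockdowns carry the same TRIM11 guide, which this fit did not use. With the line number as a term in limma, NRP2 had an unadjusted p under 0.05, beside 12.2% of all genes. No gene passed the adjusted threshold there. The intervals were wide for the receptors with uneven lines. For NRP2 the 95% interval ran from -2.08 to 1.38 in KDM5C-KD against DKD and from -2.82 to 0.64 in KDM5C-KD against TRIM11-KD. For PLXND1 they ran from -0.46 to 0.56 and from -0.29 to 0.73, and for NRP1 from -0.64 to 0.24 in both. Leaving out 1 line turned the sign of several of these values, as given with the processing alternatives.

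**Figure D3:**
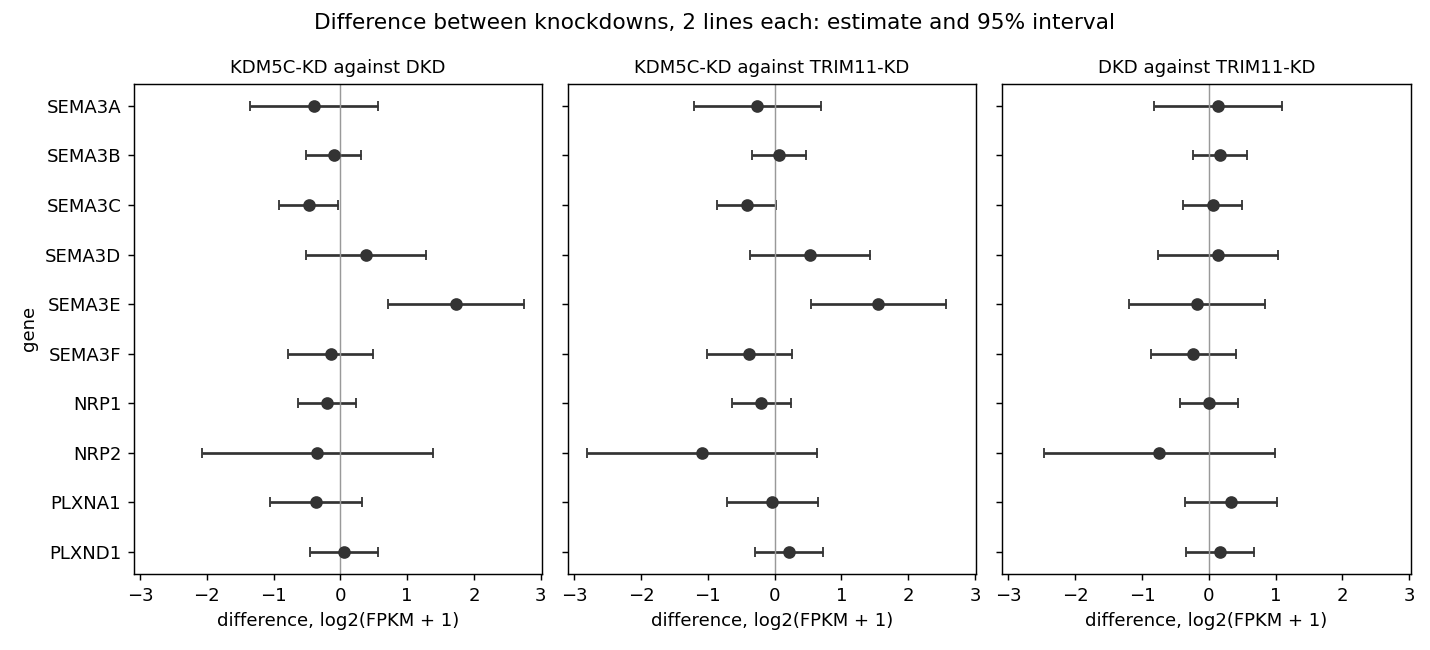
Differences on the log2(FPKM + 1) scale between knockdowns for each gene (points) with 95% limma intervals (bars), in 3 panels. The SEMA3E interval lies above 0 in both comparisons with KDM5C-KD (0.71 to 2.74 and 0.54 to 2.57) before adjustment over all genes, and the NRP2 interval is the widest in each panel.

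An additive model over all 7 libraries set libraries with a guide against libraries without it. For the KDM5C guide, no member passed by limma (0.00791% of all genes did, which is 1 gene), and none reached an unadjusted p under 0.05, beside 11.1% of all genes. SEMA3B had the lowest limma adjusted p there, 0.533, with a log2 difference of 0.23 ± 0.13. NRP2 had -0.65 ± 0.51. SEMA3E had 0.68 ± 0.49, which turned to -0.17 without the Control library, where the term is DKD against TRIM11-KD. With an interaction in the model it was 1.97, where the term is KDM5C-KD against Control. For the TRIM11 guide, no gene passed (0.0%), and SEMA3C, with 0.35 ± 0.14 and a limma adjusted p of 0.463, was the member under an unadjusted p of 0.05, beside 10.7% of all genes. Without KDM5C-KD2 the SEMA3C value was 0.20. SEMA3E had -0.87 ± 0.49 for the TRIM11 guide, and 0.42 in the model with an interaction, where the term is TRIM11-KD against Control.

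The additive model takes the effect of a guide to be the same with and without the other, and the values of SEMA3E and PLXNA1 were uneven in this respect. SEMA3E was above Control in both TRIM11-KD lines but below both KDM5C-KD lines in DKD. PLXNA1 was lower than Control with either guide, and its mean in DKD was above the means of the single knockdowns through the library labelled DKD1 (33.6 FPKM), with DKD2 (20.6 FPKM) inside their range. The interaction term, which is DKD less both single knockdowns plus Control, was -2.14 ± 0.66 for SEMA3E and 1.33 ± 0.45 for PLXNA1 on the log2(FPKM + 1) scale. Both had a limma adjusted p of 0.879, so neither passed. They were the 2 members with an unadjusted p under 0.05, beside 5.49% of all genes, while 0.0158% of all genes (2 genes) passed the adjusted threshold. This term was added after the values had been seen, and it rests on the lone Control library.

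The line numbers moved with several members. Line 2 was above line 1, or below it, in all 3 knockdowns for 6 of the 10 genes (SEMA3D, SEMA3E, NRP1, NRP2, PLXNA1 and PLXND1), beside 41.9% of all genes tested. NRP2 showed it most: line 2 was at 0.390 of line 1 in TRIM11-KD, 0.242 in KDM5C-KD and 0.320 in DKD. The receptor of the opposite order was PLXND1, with line 2 at 1.23, 1.36 and 1.31 times line 1. A number marks TRIM11-sgRNA1 or TRIM11-sgRNA2 in TRIM11-KD and DKD and a KDM5C guide in KDM5C-KD, so it stands for no shared guide across all 3.

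With the line number as a term in limma, line 2 against line 1 gave -1.40 ± 0.12 (95% interval -1.70 to -1.10) for NRP2, with an adjusted p of 0.111. The same term was -0.49 ± 0.11 for PLXNA1, -0.29 ± 0.08 for NRP1, 0.36 ± 0.09 for PLXND1 and 0.63 ± 0.16 for SEMA3D. Their limma adjusted p ran from 0.155 to 0.194. These 5 of 10 members had an unadjusted p under 0.05, beside 17.7% of all genes. No member passed the adjusted threshold, and 0.0237% of all genes (3 genes) did. This comparison was also added after the values had been seen, and what the numbers have in common beyond the guides was not tested.

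**Figure D4:**
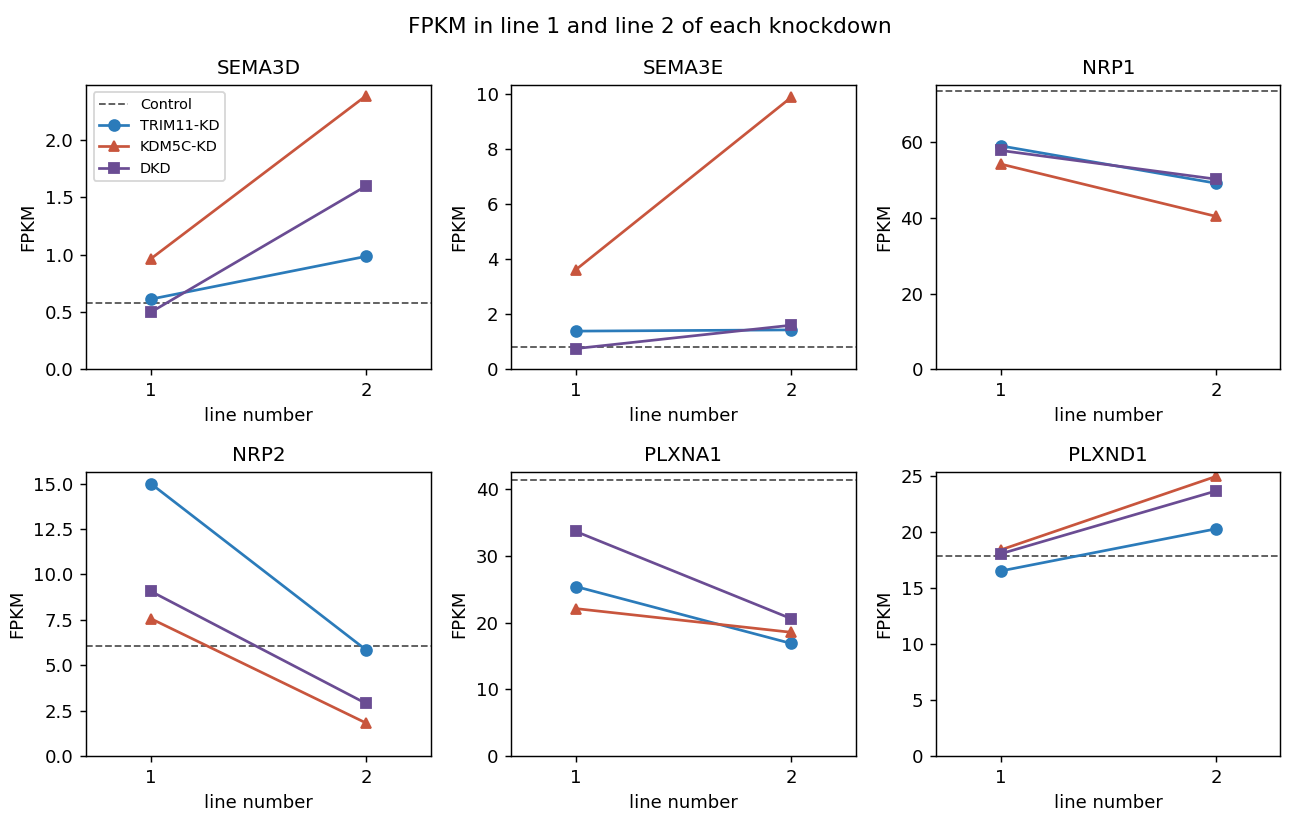
FPKM in line 1 and line 2 of TRIM11-KD (circles), KDM5C-KD (triangles) and DKD (squares) for the 6 genes whose line 2 lay on the same side of line 1 in all 3 knockdowns. The dashed line is the Control library. NRP2 goes from 15.0, 7.57 and 9.08 FPKM to 5.85, 1.83 and 2.90 FPKM.

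Of 14 other semaphorins, 9 passed the filter on mean FPKM. In KDM5C-KD, 1 of the 9 was called higher than Control, beside 5.22% of all genes (SEMA5A, a transmembrane semaphorin, 1.07 FPKM against 1.69 and 2.97 FPKM). In DKD, 1 was called higher, beside 5.71% (SEMA6B, 5.16 FPKM against 13.2 and 9.94 FPKM). None was called lower there, beside 3.97% in KDM5C-KD and 4.87% in DKD. None was called in TRIM11-KD, beside 3.25% of all genes called higher and 2.58% lower. SEMA4F, named by its size of change, went from 4.27 FPKM in Control to 2.93 to 4.06 FPKM in the knockdowns. SEMA7A, a membrane-anchored semaphorin that acts through integrins, is named here after its values were seen, as the listed gene with the lowest unadjusted p in KDM5C-KD against DKD. It was at 43.5 FPKM in Control, 37.01 and 33.9 FPKM in TRIM11-KD, 61.3 and 60.5 FPKM in KDM5C-KD, and 31.0 and 39.1 FPKM in DKD. The log2 difference between KDM5C-KD and DKD was 0.79 ± 0.14 with a limma adjusted p of 0.379. On log2(FPKM + 1), the median log2 ratio of the list to Control was -0.07 in KDM5C-KD, -0.11 in TRIM11-KD and 0.07 in DKD.

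Of 7 other plexins, 6 passed the filter. Against Control 0 of the 6 were called, beside 2.58% to 5.71% of all genes in each knockdown and direction. PLXNB2, a receptor for class 4 semaphorins, was the most abundant of them at 45.8 to 57.9 FPKM. PLXNA2, an alternative partner for neuropilins, ranged from 0.950 FPKM in KDM5C-KD2 to 2.38 FPKM in Control. PLXNC1, a receptor for SEMA7A, ranged from 0.789 FPKM in DKD2 to 2.33 FPKM in KDM5C-KD2. PLXNB1 ranged from 2.04 FPKM in Control to 3.48 FPKM in KDM5C-KD2, and PLXNB3 from 1.95 FPKM in TRIM11-KD2 to 3.68 FPKM in the library labelled DKD1. Among the genes outside the 10 that share the A-type role, PLXNA3 held 11.2 to 14.6 FPKM and PLXNA4 at most 0.0625 FPKM. The summed FPKM of the list was 66.9 to 78.3 over the 7 libraries.

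Of 12 co-receptors and other ligands of the neuropilins, 8 passed the filter. None was called higher than Control, beside 3.25% to 5.71% of all genes in the 3 knockdowns. Lower calls numbered 1 in TRIM11-KD, 2 in KDM5C-KD and 2 in DKD, beside the 2.58%, 3.97% and 4.87% of all genes given above. VEGFA, the growth factor bound by NRP1, was called lower in DKD, at 81.3 FPKM in Control, 67.2 and 54.1 FPKM in TRIM11-KD, 55.7 and 44.9 FPKM in KDM5C-KD, and 38.8 and 37.3 FPKM in DKD. All 6 knockdown libraries were below Control, as they were for 16.1% of the genes tested. The DKD lines were the lowest, an order whose share over all genes was not counted. PGF, another ligand of the family, was called lower in TRIM11-KD and KDM5C-KD, at 6.31 FPKM in Control, 2.82 and 2.91 FPKM in TRIM11-KD, 3.00 and 2.68 FPKM in KDM5C-KD, and 3.11 and 6.14 FPKM in DKD. KDR, a receptor for VEGFA that is mainly endothelial, was called lower in KDM5C-KD and DKD but was at most 0.990 FPKM. L1CAM, an adhesion molecule that binds NRP1, ranged from 26.7 FPKM in KDM5C-KD2 to 119 FPKM in DKD2. The median log2 ratio to Control of the list was -0.18 to -0.21 in the 3 knockdowns.

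Below the receptors, 18 of 22 signalling genes passed the filter. In KDM5C-KD, 1 of the 18 was called higher and 3 lower, beside 5.22% and 3.97% of all genes. In DKD, 1 was called higher and 1 lower, beside 5.71% and 4.87%. RND1 and RHOD are small GTPases that bind plexin-A1, with opposite known effects on its activity. RND1 was called lower in KDM5C-KD and DKD, at 4.10 FPKM in Control, 4.79 and 1.58 FPKM in TRIM11-KD, 2.15 and 1.69 FPKM in KDM5C-KD, and 1.97 and 0.360 FPKM in DKD. RHOD was called higher in the same comparisons, at 18.6 FPKM in Control, 17.2 and 28.0 FPKM in TRIM11-KD, 28.5 and 44.1 FPKM in KDM5C-KD, and 32.4 and 41.3 FPKM in DKD. In RND1 every line 2 was below its line 1, and in RHOD above it. DPYSL2 (also known as CRMP2), which carries the SEMA3A signal to microtubules, and CDK5, a kinase that phosphorylates it, were called lower in KDM5C-KD, with DPYSL2 at 43.4 FPKM in Control and 23.7 and 20.7 FPKM in KDM5C-KD. CDK5 was at 18.3 FPKM in Control and 10.4 and 11.3 FPKM in KDM5C-KD. No gene of this list was called in TRIM11-KD, beside 3.25% of all genes called higher and 2.58% lower. RAC1 held 180 to 199 FPKM throughout.

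Proteases that process class 3 semaphorins held the gene furthest from Control. ADAMTS1, a metalloprotease reported to cleave SEMA3C, was called lower in all 3 knockdowns, at 14.5 FPKM in Control, 9.02 and 2.39 FPKM in TRIM11-KD, 2.17 and 0.620 FPKM in KDM5C-KD, and 2.04 and 0.369 FPKM in DKD. Every line 2 was again below its line 1. For the KDM5C guide its log2 difference was -2.02 ± 0.51 with a limma adjusted p of 0.383. PCSK6, which shares its entry with LOC100507472, was called higher in KDM5C-KD, at 0.863 FPKM in Control and 2.41 and 3.54 FPKM in KDM5C-KD. FURIN, the convertase that activates and inactivates class 3 semaphorins, ranged from 24.3 to 36.6 FPKM and was not called. Of the 5 proteases, 4 passed the filter. Lower calls numbered 1 in each knockdown, beside 2.58% of all genes in TRIM11-KD, 3.97% in KDM5C-KD and 4.87% in DKD. Higher calls numbered 1 in KDM5C-KD, beside 5.22%, and 0 in TRIM11-KD and DKD, beside 3.25% and 5.71%. No gene of these 5 lists passed limma's adjusted threshold in the comparisons between knockdowns or for either guide.

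Genes whose profile over the 7 libraries was most like that of a member are given as a description, by Pearson correlation of log2(FPKM + 1) among 2634 genes. The points are 7 libraries of 1 cell line, and KDM5C-KD2 carries much of the spread. For SEMA3E these were CITED2, LPCAT1 and MAPRE3 (0.99 each), with CITED2 at 192 FPKM in Control and 283 and 452 FPKM in KDM5C-KD. For SEMA3D they were FLRT2 (0.99), PSG2 (0.98) and PDZD7 (0.98), for NRP2 they were ADAM10, PXK and PLA2G4C (0.97, 0.97 and 0.96), and for PLXNA1 they included PVRL1 and LINC00704 (0.97 each). SEMA3F was most like RARRES3 (0.96), followed by the joint entry of KRT15 and MIR6510 (0.95) and TIGD7 (0.92). SEMA3A had no such close partner, its highest being IFITM1 (0.83), LINC01137 (0.82) and KHDRBS3 (0.82). Within the set, PLXND1 and NRP2 had the most opposed profiles (-0.96), and PLXND1 and SEMA3D the most alike (0.94).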

How the data were processed

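RNA was taken from 7 MDA-MB-231 lines for poly(A) libraries without strand information, sequenced as paired 150-base reads. Per the study's methods, reads were trimmed with Cutadapt, mapped to hg19 with HISAT2 2.1.0 and summarised with Cufflinks, and the authors deposited FPKM per gene. Overlapping genes can share reads without strand. No read numbers are given. The deposited FPKM values were used as they stand, after dropping 27 symbols turned into dates, with 524 joint entries kept. The 6 mouse tumour samples of the series were not used here.

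Ratios to Control of single genes are plain FPKM ratios. Median log2 ratios of a list, and the mean log2 ratios used to name genes, were taken on log2(FPKM + 1). Other comparisons used limma 3.58.1 (R 4.3.3, eBayes with trend) on log2(FPKM + 1), which understates changes of low genes, over genes whose mean FPKM reached 0.5, with Benjamini-Hochberg adjustment. The fit was tested on simulated data. Between knockdowns, p-values measure the spread between lines, which are not stated to be independent cultures. In the additive guide model the spread also takes in guide effects that do not add. With the line number as a term, it is how unevenly line 2 differed from line 1 between knockdowns. The members and lists were chosen with earlier results of these data known. Named beyond the members were listed genes called against Control, up to 3 a list with the largest mean log2 ratio, and for each member whose highest value was at least 2 times its lowest the 3 most similar genes (mean FPKM of at least 1, SD of at least 0.3), of which 1 is not reported here. SEMA7A, PLXNB2, PLXNC1, PLXNA3, PLXNA4 and RAC1 were named outside these rules. Positions come from GENCODE on hg19. Alternatives covered the pseudocount, filter, fold, scaling, variance trend, replicate block and each library left out.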

Additional observations from a re-analysis of the deposited data

How the results depend on the processing

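Of the counts of members called, the alternatives moved those against Control. In TRIM11-KD against Control, 2 members were called. With a pseudocount of 1 it was 1 (PLXNA1), at a fold of 2 it was 0, and with either line left out it was 3 to 4. In KDM5C-KD, 4 members were called, 3 with a pseudocount of 1 (SEMA3D lost), 2 at a fold of 2, and 4 to 7 with either line left out. In DKD, 0 members were called, and 2 to 5 with either line left out. In the 5 limma comparisons, 0 members passed under every alternative run. Some values that had not passed turned direction. For the KDM5C guide SEMA3E was -0.17 with the replicate block, and -0.17 to 1.04 with 1 library left out, the lowest without Control. In the interaction model, which rests on the lone Control library, that value was 1.97. For the TRIM11 guide SEMA3E was 0.42 in the interaction model. With 1 library left out, KDM5C-KD against DKD ranged from -0.41 to 0.0086 for NRP1, -1.15 to 0.45 for NRP2 and -0.16 to 0.26 for PLXND1. NRP1 in KDM5C-KD against TRIM11-KD ranged from -0.41 to 0.0092, and PLXNA1 in DKD against TRIM11-KD from -0.0085 (without DKD1) to 0.67. The turned values of NRP1, NRP2 and PLXND1 came without KDM5C-KD2, and for NRP2 and PLXND1 also without DKD1. With the line number as a replicate block 0 members passed, and the number with an unadjusted p under 0.05 was 3 in KDM5C-KD against DKD (17.1% of all genes), 4 in KDM5C-KD against TRIM11-KD (15.6%), 1 in DKD against TRIM11-KD (12.2%), 1 for the KDM5C guide (12.2%) and 3 for the TRIM11 guide (17.1%). The 1 member in DKD against TRIM11-KD was NRP2. Deviations of same-numbered lines from their group means correlated across genes at 0.37 (TRIM11-KD with DKD), 0.27 (KDM5C-KD with DKD) and 0.09 (TRIM11-KD with KDM5C-KD). The main fits did not take the numbers as pairs, although same-numbered TRIM11-KD and DKD lines share a TRIM11 guide. Median ratio scaling and scaling to the same total moved no library by over 0.04 on the log2 scale. The unknown read depth limits SEMA3D, SEMA3A and SEMA3E most, since they are listed at or below 3.2 FPKM in Control.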
